A study of Mus musculus with 12 samples.

Results

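The heat shock chaperones described here are 10 proteins that keep other proteins folded: the cytosolic HSP70 proteins Hspa1a, Hspa1b and Hspa8, their partners Hsph1 and Dnajb1, the cytosolic HSP90 proteins Hsp90aa1 and Hsp90ab1, the mitochondrial chaperonin pair Hspd1 and Hspe1, and the small heat shock protein Hspb1. They were found by gene symbol among the 53801 genes of the deposited count and TPM tables, and each of the 10 symbols was on 1 row. All 10 passed the filter on low counts, which kept 14964 genes for testing.

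RNA was measured by bulk sequencing in cells labelled as macrophages and sorted from hearts of C57BL/6N mice whose left anterior descending coronary artery had been ligated to cause a myocardial infarction (MI). The 4 groups, with 3 libraries each, were Bhlhe41Cre CCR2low, Bhlhe41Cre CCR2hi, WT CCR2low and WT CCR2hi. Bhlhe41Cre stands here for Bhlhe41dTomato-Cre+/-, a genotype with a reporter and Cre recombinase at the gene of the transcriptional repressor Bhlhe41, WT for wild type, and the suffix for the level of CCR2, the receptor for the monocyte chemoattractant CCL2, on which the cells were sorted. All groups carried the infarct, so none is from an uninjured heart. The age of the mice, the time after MI and the number of animals behind a library are not given in the labels used here, so p-values measure the spread between libraries, which may be technical.

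Heat shock proteins bind unfolded or partly folded proteins and, in the case of HSP70, HSP90 and the chaperonins, use ATP to drive folding. Some are made all the time, such as Hspa8 and Hsp90ab1, and others, such as Hspa1a, Hspa1b, Dnajb1, Hsph1 and Hspb1, are strongly induced when the transcription factor HSF1 is set free by unfolded protein and binds heat shock elements, inverted repeats of GAA and TTC, in their promoters. In infarcted hearts these proteins are known as part of the response to ischaemia and oxidative stress, and in macrophages and other cells they also rise when tissue is digested and sorted.

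Libraries held 17702018 to 20826688 counts, and log2 CPM values correlated at 0.980 to 0.994 (Pearson's r across genes, which are not independent replicates) within groups and at 0.802 to 0.965 between groups. Bhlhe41 itself had 447, 477 and 226 counts in Bhlhe41Cre CCR2low, 160, 198 and 132 in Bhlhe41Cre CCR2hi, 774, 642 and 671 in WT CCR2low and 920, 756 and 531 counts in WT CCR2hi, so it was lower in every Bhlhe41Cre library than in any WT library of the same gate. A list of 17 macrophage genes took 3.23 to 3.53% of counts in Bhlhe41Cre CCR2low, 0.87 to 1.13% in Bhlhe41Cre CCR2hi, 3.63 to 3.88% in WT CCR2low and from 0.25 to 0.57% in WT CCR2hi. A list of 14 fibroblast genes took 0.28 to 0.59%, 4.28 to 5.42%, 0.57 to 0.91% and 7.79 to 8.74% of counts in the same groups. Every gene of both lists had counts in every library, and all 6 CCR2hi libraries held more fibroblast than macrophage counts, which goes against their label as macrophages. They are therefore called CCR2hi libraries. The labels give male mice, but Xist had 1403 to 3699 counts in the Bhlhe41Cre libraries against 0 to 3 in the WT libraries, and sex and genotype cannot be told apart. Summed Y-linked counts were 105 and 182 in the Bhlhe41Cre libraries numbered 3, against 668 to 1741 in the other 10 libraries, and results are given without both where their call changed, an alternative chosen after seeing the data.

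The promoters of the members carry heat shock elements to different degrees. RefSeq promoter windows on GRCm38.p6, from 250 bases before to 50 after a gene's start, were found for 7 of the 10 members and not for Hspa8, Hsp90aa1 and Hsp90ab1. The shortest element searched was a pair of inverted units, GAANNTTC or TTCNNGAA, and the longer one 3 alternating units, GAANNTTCNNGAA or TTCNNGAANNTTC. Each motif reads the same or as its partner on the other strand, so both strands were searched, and the 3-unit motif contains both pair motifs. The pair was in 4946 of 32851 windows (15.1%) and the 3-unit element in 198 (0.603%). Of the members' 10 windows, 7 had the pair. Counted by gene rather than by window, the pair was found for 6 members and the 3-unit element for 3, Hspd1, Hspe1 and Hsph1. Neither of the 2 Dnajb1 windows had a pair, and 1 of the 2 Hspd1 windows had none. The windows below, 5′ to 3′ on the gene's strand, are, among members that have one, those whose levels differ most in the comparisons (Hspa1a, Hspa1b and Hspb1) and 2 with 3-unit elements (Hspe1 and Hsph1). Capitals mark the elements.
Hspa1a (chr17:34972107-34972406, minus strand): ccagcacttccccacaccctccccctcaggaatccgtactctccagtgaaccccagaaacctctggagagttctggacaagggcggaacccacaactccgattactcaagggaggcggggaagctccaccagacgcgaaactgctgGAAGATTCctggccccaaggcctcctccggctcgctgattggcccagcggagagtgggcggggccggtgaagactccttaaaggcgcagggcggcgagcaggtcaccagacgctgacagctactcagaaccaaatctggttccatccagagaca
Hspa1b (chr17:34959189-34959488, minus strand): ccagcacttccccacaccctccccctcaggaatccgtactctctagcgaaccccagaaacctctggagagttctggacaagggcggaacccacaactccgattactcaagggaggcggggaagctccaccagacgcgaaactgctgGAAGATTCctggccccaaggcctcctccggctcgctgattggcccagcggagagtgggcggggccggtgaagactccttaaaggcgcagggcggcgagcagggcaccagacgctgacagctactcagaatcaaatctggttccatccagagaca
Hspb1 (chr5:135887669-135887968, plus strand): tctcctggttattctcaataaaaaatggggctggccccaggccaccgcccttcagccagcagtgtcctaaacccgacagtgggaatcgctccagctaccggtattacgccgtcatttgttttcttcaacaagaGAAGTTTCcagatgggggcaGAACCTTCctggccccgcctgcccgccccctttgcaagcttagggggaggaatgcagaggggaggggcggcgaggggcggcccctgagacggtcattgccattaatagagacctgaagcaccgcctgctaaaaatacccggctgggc
Hspe1 (chr1:55087898-55088197, plus strand): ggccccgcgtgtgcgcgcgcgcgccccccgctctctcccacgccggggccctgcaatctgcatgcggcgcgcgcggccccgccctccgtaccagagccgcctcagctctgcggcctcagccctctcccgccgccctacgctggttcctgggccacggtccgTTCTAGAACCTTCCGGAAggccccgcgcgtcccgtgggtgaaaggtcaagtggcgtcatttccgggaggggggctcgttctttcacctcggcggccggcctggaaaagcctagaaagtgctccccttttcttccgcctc
Hsph1 (chr5:149636287-149636586, minus strand): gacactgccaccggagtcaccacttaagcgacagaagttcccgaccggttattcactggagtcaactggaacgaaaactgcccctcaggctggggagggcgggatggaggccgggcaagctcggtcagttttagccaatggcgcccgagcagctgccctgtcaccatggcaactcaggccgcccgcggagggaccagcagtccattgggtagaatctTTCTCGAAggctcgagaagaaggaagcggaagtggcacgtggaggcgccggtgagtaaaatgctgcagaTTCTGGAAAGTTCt

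Hspa1a and Hspa1b lie in the same orientation with starts 12918 bp apart, and their windows were identical at 296 of 300 bases, with the same single pair 97 to 104 bases before the start. Hsph1 had a pair 26 to 33 bases before its start and a 3-unit element 36 to 48 bases after it. Hspb1 had 2 pairs, 90 to 97 and 110 to 117 bases before its start. Hspd1 and Hspe1 are transcribed in opposite directions, with GENCODE gene starts 111 bp apart. The run of GAA and TTC units 72 to 89 bases before the RefSeq start of Hspe1 lies 127 to 144 bases before the RefSeq start of the second Hspd1 window. These distances are from other starts than the 111 bp, and the run lies within the GENCODE span of Hspd1. A match only describes these letters in these windows. The members lie on chromosome 17 (Hspa1a 34969190-34972156, Hspa1b 34956436-34959238 and Hsp90ab1 45567775-45573271), 9 (Hspa8 40800984-40810087), 12 (Hsp90aa1 110690605-110702728), 5 (Hsph1 149614287-149636376 and Hspb1 135887919-135889563), 8 (Dnajb1 83608193-83612653) and 1 (Hspd1 55077835-55088243 and Hspe1 55088132-55091307) of GRCm38.

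**Figure D1:**
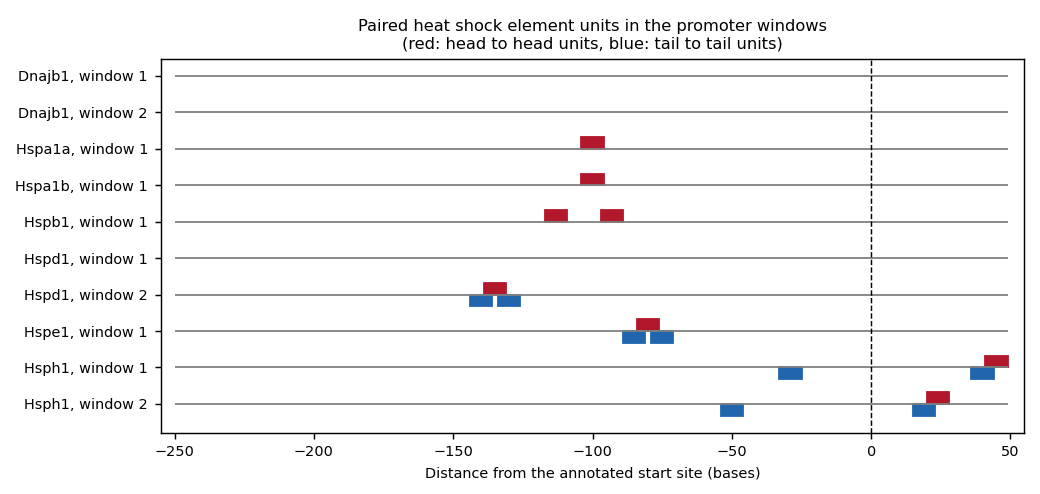
Position of heat shock element pairs in the RefSeq promoter windows of the 7 members that have one, as distance in bases from the annotated start (x axis), with a line per window (y axis). Red boxes are GAANNTTC and blue boxes TTCNNGAA, and boxes that overlap form the 3-unit element. Hspa1a and Hspa1b share the position of their single pair, and both Dnajb1 windows are empty.

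Hspa8 and Hsp90ab1, the constitutive HSP70 and HSP90, were the most abundant members in all 4 groups on the length-scaled TPM scale. Hspa8 averaged 2369.7 ± 253 TPM in Bhlhe41Cre CCR2low, 2592 ± 275 in Bhlhe41Cre CCR2hi, 2199 ± 188 in WT CCR2low and 1915 ± 59.9 in WT CCR2hi (SD, n = 3 libraries each, here and for all group means), which ranked it 52, 56, 54 and 68 among all genes. Hsp90ab1 averaged 782 ± 52.3, 1087 ± 33.3, 675 ± 47.1 and 893 ± 35.3 TPM in the same groups. In no group did the range of Hspa8 overlap that of Hsp90ab1, or that of Hsp90ab1 the next member's.

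Hsph1, a nucleotide exchange factor of HSP70, was the lowest member in all 4 groups. The order between these ends depended on the group. Hsp90aa1 was the third in Bhlhe41Cre CCR2low (324 ± 123 TPM), the fourth in Bhlhe41Cre CCR2hi (344 ± 88.2 TPM), the seventh in WT CCR2low (48.8 ± 7.08 TPM) and the fifth in WT CCR2hi (161 ± 42.4 TPM). Hspb1 was the eighth in Bhlhe41Cre CCR2low, the third in Bhlhe41Cre CCR2hi, the fourth in WT CCR2low and the third in WT CCR2hi. Many neighbours in that order did not differ beyond their spread: in Bhlhe41Cre CCR2low the ranges of Hsp90aa1 and Hspe1 overlapped, as did each pair of neighbours from Hspa1a through Hspd1, Hspa1b, Hspb1 and Dnajb1 to Hsph1. In Bhlhe41Cre CCR2hi neighbours overlapped from Hspb1 through Hsp90aa1, Hspa1a and Hspa1b to Hspe1, and in WT CCR2hi from Hspe1 through Hsp90aa1, Hspa1a, Dnajb1 and Hspa1b to Hspd1. In WT CCR2low the neighbours that overlapped were Dnajb1 with Hsp90aa1, Hsp90aa1 with Hspd1, and Hspa1b with Hsph1.

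The 10 members together held 4082, 4468 and 3499 TPM in Bhlhe41Cre CCR2low, 5776, 5800 and 4905 TPM in Bhlhe41Cre CCR2hi, 3192, 3666 and 3362 TPM in WT CCR2low and 3889, 3986 and 4586 TPM in WT CCR2hi. The Bhlhe41Cre CCR2hi libraries were the highest, above all other 9 libraries. In counts the members took 0.349 to 0.742% of a library.

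**Figure D2:**
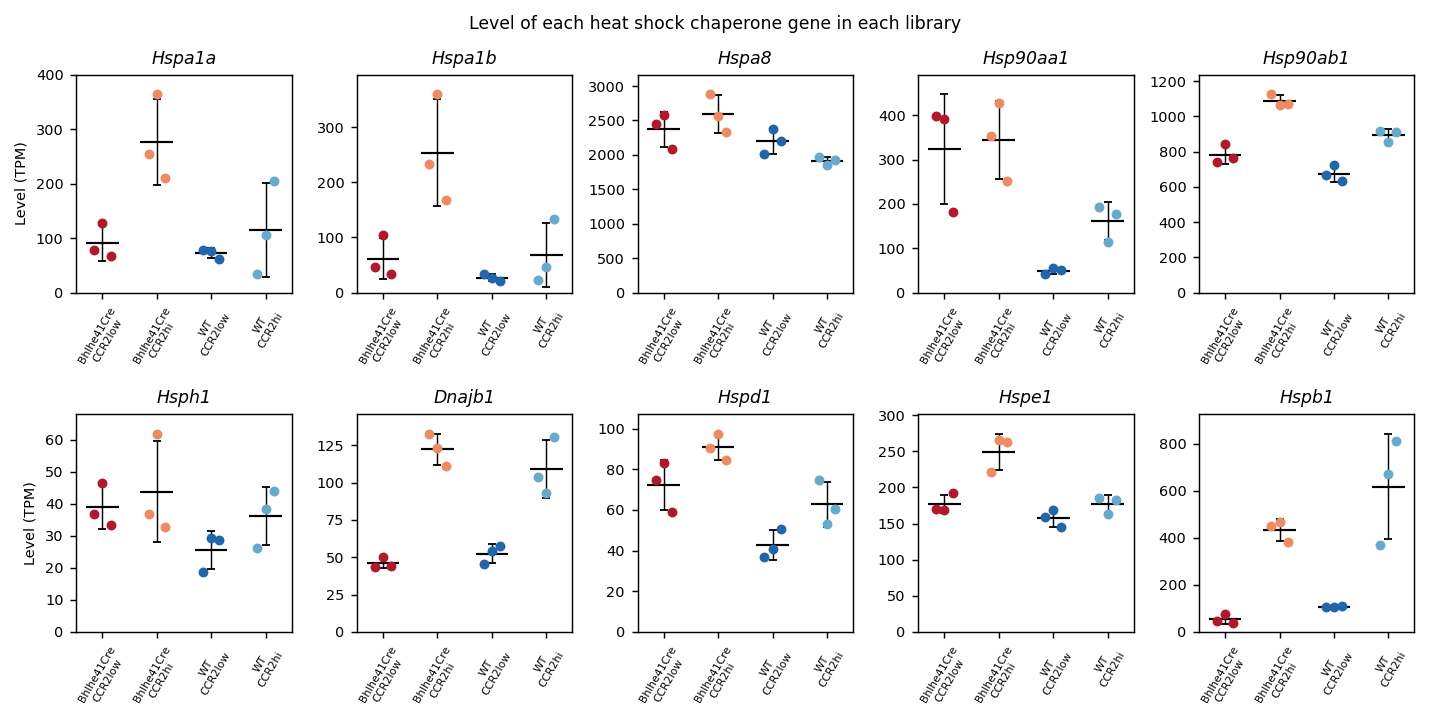
TPM of each of the 10 chaperones (y axes, linear from 0) in the 12 libraries, by group (x axis: Bhlhe41Cre CCR2low, Bhlhe41Cre CCR2hi, WT CCR2low, WT CCR2hi). Points are libraries, and bars show the group mean ± SD. Hspb1 lies at 36.0 to 77.9 TPM in Bhlhe41Cre CCR2low against 381 to 468 TPM in Bhlhe41Cre CCR2hi, and Hsp90aa1 at 181 to 398 TPM in Bhlhe41Cre CCR2low against 40.9 to 54.5 TPM in WT CCR2low.

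The 4 contrasts between groups and the difference between the 2 gate contrasts were tested with edgeR on the counts of all 12 libraries, and a gene was called at an adjusted p under 0.05 over all genes tested. Changes below are log2 fold changes ± SE of counts, with edgeR's adjusted p. The contrasts share libraries with each other, so their values stand side by side and are not independent. In bulk RNA, fewer cells that express a gene and less RNA per cell cannot be told apart.

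Between the CCR2 gates, Hspb1 and Dnajb1 fell in CCR2low in both genotypes, while the counts of members called lower stood not far from the shares of all genes. In Bhlhe41Cre, 4 of 10 members fell in CCR2low relative to CCR2hi (Hspb1, Hspa1b, Hspa1a and Dnajb1), and the other 6 did not pass the test. Of all genes, 54.1% were called in this contrast, 24.9% higher and 29.1% lower. The members' median log2 change was -0.25, against -0.01 over all genes. Without both Bhlhe41Cre libraries numbered 3, 2 members were called lower, Dnajb1 and Hspb1. In WT, 4 of 10 fell (Hspb1, Hsp90aa1, Dnajb1 and Hsph1) and 1 rose (Hspa8), with 59.8% of all genes called, 29.8% higher and 30% lower. The median was -0.49, against 0.01 over all genes.

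Between the genotypes, more members were higher in Bhlhe41Cre than lower. In CCR2low, 4 of 10 rose in Bhlhe41Cre relative to WT (Hsp90aa1, Hspd1, Hsph1 and Hspa8) and 1 fell (Hspb1), with 43% of all genes called, 16.4% higher and 26.7% lower. The members' median was 0.34, against -0.18 over all genes. In CCR2hi, 7 of 10 rose (Hspa1b, Hspa1a, Hsp90aa1, Hspa8, Hspd1, Hspe1 and Hsp90ab1), and the other 3 did not pass the test, with 32.1% of all genes called, 16.2% higher and 15.9% lower. The median was 0.69, against -0.03 over all genes. This count was 4 without WT CCR2hi 2, where Hspa1a, Hspa1b and Hsp90ab1 lost their calls, and 6 without both Bhlhe41Cre libraries numbered 3, where Hspa1a lost its call. The CCR2low count of 4 was 2 without Bhlhe41Cre CCR2low 2 or without WT CCR2low 1.

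The gate effect differed between the genotypes for 1 member. In the interaction, the CCR2low minus CCR2hi difference in Bhlhe41Cre less that in WT, Hsp90aa1 was called higher, with 12.6% of all genes called, 4.74% higher and 7.85% lower. The members' median was -0.45, of the opposite sign to this call, against -0.18 over all genes. This call ended without Bhlhe41Cre CCR2low 1 (adjusted p = 0.056) or without WT CCR2low 2 (0.0541).

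Markers of other cells moved with these contrasts. In both gate contrasts all 14 fibroblast genes fell in CCR2low and all 17 macrophage genes rose. Of 9 mural genes, which mark pericytes and smooth muscle, 9 fell in CCR2low in Bhlhe41Cre and 8 in WT, and of 12 endothelial genes 12 and 11 fell. All 12 cardiomyocyte genes fell in CCR2low of Bhlhe41Cre, while in WT 2 fell and 1 rose. Of the 5 adipocyte genes tested, all 5 rose in CCR2low of WT. Of 10 neutrophil genes, 6 fell and 1 rose in CCR2low of Bhlhe41Cre, while 2 rose and 0 fell in WT. Of 9 T and NK cell genes tested, 5 fell and 1 rose in CCR2low of Bhlhe41Cre, while 4 rose and 0 fell in WT. Between genotypes in CCR2low, 9 of 14 fibroblast, 9 of 9 mural, 11 of 12 cardiomyocyte, 5 of 5 adipocyte and 5 of 9 T and NK cell genes fell in Bhlhe41Cre. The adipocyte list took 0.00224 to 0.0803% of counts in WT CCR2low and at most 0.000208% in any other library. Between genotypes in CCR2hi, 10 of 17 macrophage and 9 of 10 neutrophil genes rose and 6 of 14 fibroblast genes fell. The neutrophil list took 0.0918 to 0.143% of counts in Bhlhe41Cre CCR2hi, against 0.0292 to 0.0325% in Bhlhe41Cre CCR2low and 0.00508 to 0.0144% in WT CCR2hi. The mitochondrial share of counts, which can follow RNA quality, moved with both gate and genotype: it was 1.71 to 2.05% in Bhlhe41Cre CCR2low, 2.39 to 3.46% in Bhlhe41Cre CCR2hi, 2.19 to 3.71% in WT CCR2low and from 5.72 to 8.05% in WT CCR2hi, with no overlap in any of the 4 contrasts. The part of these markers and of the mitochondrial share in the chaperone results was not tested.

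**Figure D3:**
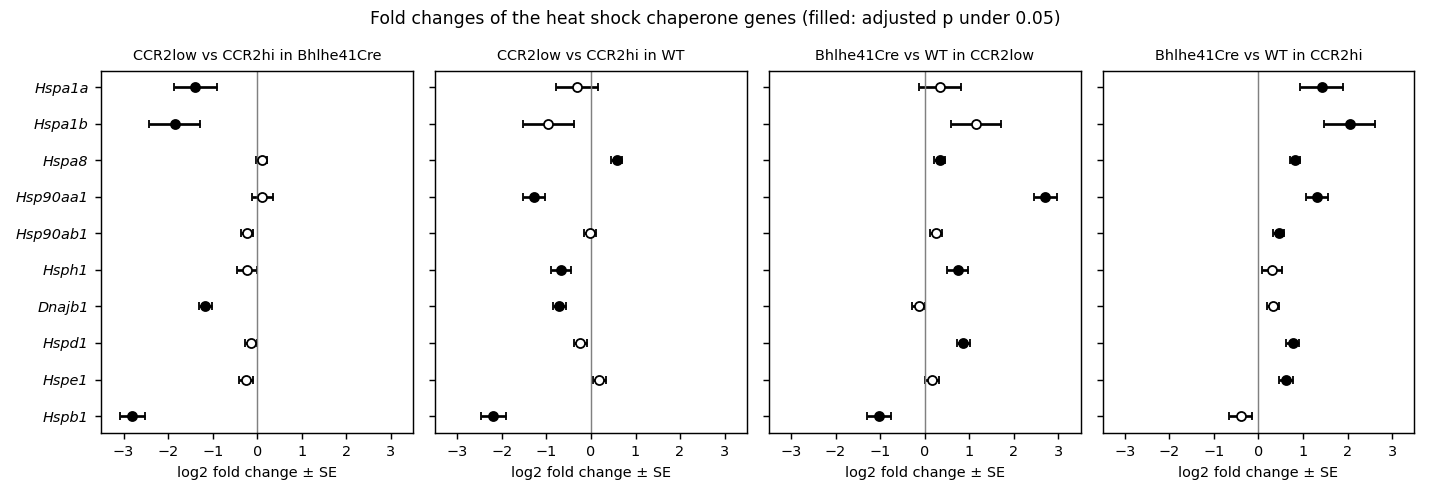
Log2 fold change ± SE from edgeR (x axis) of each chaperone (rows) in the 4 contrasts between groups (panels). Filled points have an adjusted p under 0.05. In Bhlhe41Cre vs WT in CCR2hi, 7 members lie to the right and are filled, and Hspb1 lies to the left in all 4 panels, with no call in CCR2hi.

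Hspa1a and Hspa1b encode the stress-inducible HSP70. Their levels were highest in Bhlhe41Cre CCR2hi and varied widely between the WT CCR2hi libraries. Hspa1a was at 78.5, 129 and 66.3 TPM in Bhlhe41Cre CCR2low and at 254, 364 and 211 TPM in Bhlhe41Cre CCR2hi. In WT it was at 78.3, 77.0 and 62.1 TPM in CCR2low and at 33.2, 106 and 204 TPM in CCR2hi. All Bhlhe41Cre CCR2hi libraries lay above all others, while in WT the CCR2hi libraries reached both below and above the CCR2low libraries. Hspa1b was at 45.7, 104 and 34.4 TPM in Bhlhe41Cre CCR2low and at 233, 359.9 and 168 TPM in Bhlhe41Cre CCR2hi. In WT it was at 34.4, 27.0 and 20.4 TPM in CCR2low and at 22.8, 47.0 and 134 TPM in CCR2hi. The Bhlhe41Cre CCR2hi libraries again lay above all others, and in CCR2low the lowest Bhlhe41Cre library and the highest WT library were level to 3 digits.

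Both genes fell in CCR2low relative to CCR2hi in Bhlhe41Cre, Hspa1a by 1.39 ± 0.48 (adjusted p = 0.0276) and Hspa1b by 1.85 ± 0.58 (adjusted p = 0.0162) on the log2 scale. Both rose in Bhlhe41Cre relative to WT in CCR2hi, Hspa1a by 1.42 ± 0.48 (adjusted p = 0.041) and Hspa1b by 2.05 ± 0.58 (adjusted p = 0.0182). In WT the gates gave -0.31 ± 0.48 for Hspa1a (adjusted p = 0.593) and -0.96 ± 0.57 for Hspa1b (adjusted p = 0.163). In CCR2low the genotypes gave 0.34 ± 0.48 (adjusted p = 0.597) and 1.15 ± 0.57 (adjusted p = 0.122). The groups did not overlap for either gene in the 2 called contrasts, and for Hspa1b also between genotypes in CCR2low. On counts scaled per library (CPM), groups that did not overlap were seen for 61.3% of all genes between gates in Bhlhe41Cre, 66% between gates in WT, 51.4% between genotypes in CCR2low and 48.4% between genotypes in CCR2hi. Overlaps of members are read on TPM unless CPM is named, and for some members the 2 scales differ.

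Single libraries decided these calls. The gate calls in Bhlhe41Cre ended without Bhlhe41Cre CCR2low 1 (Hspa1a adjusted p = 0.0956, Hspa1b 0.0718), Bhlhe41Cre CCR2low 3 (0.092 and 0.0645) or Bhlhe41Cre CCR2hi 2 (0.0907 and 0.0594), and without both libraries numbered 3 (0.111 and 0.0771). The genotype call of Hspa1b in CCR2hi ended without Bhlhe41Cre CCR2hi 2 (0.0677) or WT CCR2hi 2 (0.0648). That of Hspa1a ended without any 1 of 8 libraries, with adjusted p up to 0.135 without Bhlhe41Cre CCR2hi 2, and was 2.16 (adjusted p = 0.00387) without WT CCR2hi 3. The Hspa1a call also ended with upper quartile scaling (0.051), with only the 6 libraries compared (0.112) and without both libraries numbered 3 (0.0786). With no filter on low counts all 4 calls ended, with adjusted p of 0.163 for Hspa1a and 0.105 for Hspa1b between gates and of 0.184 and 0.1 between genotypes. In WT, leaving out WT CCR2hi 1, the lowest library, gave called gate differences of -0.96 for Hspa1a (adjusted p = 0.0172) and -1.59 for Hspa1b (0.0219), while leaving out WT CCR2hi 3, the highest, gave 0.43 and 0.03 with no call. Between genotypes in CCR2low, Hspa1b was called under 3 alternatives. It was called at 1.35 without WT CCR2hi 1 (0.0398) and at 1.15 without WT CCR2hi 3 (0.0382). The remaining alternative, with a lower adjusted p, was not a fit with 1 library left out.

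The reads of the 2 genes cannot be split with certainty. Their open reading frames were identical at 99.58% of bases (8 mismatches in 1926) and their transcripts at 93.97% of 2688 aligned bases. Hspa1b took 23.6 to 48.2% of their joint counts. Summed into 1 feature, they fell by 1.59 ± 0.51 between gates in Bhlhe41Cre (adjusted p = 0.0194) and rose by 1.67 ± 0.51 between genotypes in CCR2hi (adjusted p = 0.026). In WT the summed gate difference was -0.51 ± 0.50 (adjusted p = 0.398), and in CCR2low the genotypes differed by 0.60 ± 0.50 (adjusted p = 0.359). Gm20481, a protein-coding gene on the other strand, overlaps Hspa1a by 2225 bp, and without a stated strand protocol their reads cannot be told apart.

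Hspa8, the constitutive HSP70, was high in every library. It was at 2447, 2575 and 2087 TPM in Bhlhe41Cre CCR2low, 2879, 2567 and 2331 TPM in Bhlhe41Cre CCR2hi, 2006, 2383 and 2207 TPM in WT CCR2low and 1964, 1848 and 1932 TPM in WT CCR2hi. The WT CCR2hi libraries lay below all others, and the other 3 groups overlapped. In CPM, the counts behind the test scaled per library, it was at 2858, 2769 and 2959.9 in Bhlhe41Cre CCR2low, against 2241, 2405 and 2144 in WT CCR2low, which did not overlap. Hspa8 rose by 0.82 ± 0.12 in Bhlhe41Cre relative to WT in CCR2hi (adjusted p = 0.000308). It rose by 0.34 ± 0.12 in CCR2low (adjusted p = 0.0379), a call that ended under 10 of 22 alternatives. Among these were limma on TPM (0.11, adjusted p = 0.44), the replicate number as a block (adjusted p = 0.0654) and leaving out both libraries numbered 3 (0.0749). The call also ended without Bhlhe41Cre CCR2low 1 (0.0877) or 2 (0.0598) or WT CCR2low 1 (0.1), 2 (0.065) or 3 (0.114). The CCR2low genotype change was 0.53 without any 1 Bhlhe41Cre CCR2hi library or WT CCR2hi 1, where the median of all genes moved by 0.19.

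Between gates Hspa8 rose by 0.58 ± 0.12 in CCR2low of WT (adjusted p = 0.00108). This was 0.34 without WT CCR2hi 1 and 0.37 without any 1 Bhlhe41Cre CCR2hi library, where the median of all genes moved by -0.21 and -0.20. On TPM with limma the call ended (0.20, adjusted p = 0.117). In Bhlhe41Cre the gate change was 0.10 ± 0.12 (adjusted p = 0.526). The interaction was -0.48 ± 0.17 (adjusted p = 0.0824).

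The ratio of inducible to constitutive HSP70 followed Hspa1a and Hspa1b. Their summed TPM was 5.08, 9.04 and 4.82% of that of Hspa8 in Bhlhe41Cre CCR2low and 16.9, 28.2 and 16.3% in Bhlhe41Cre CCR2hi. In WT it was 5.62, 4.36 and 3.74% in CCR2low and 2.85, 8.29 and 17.5% in CCR2hi. The gates did not overlap in Bhlhe41Cre, where the means were 6.31 ± 2.37% and 20.5 ± 6.72%. In WT (4.57 ± 0.956% and 9.55 ± 7.40%) they overlapped, and WT CCR2hi 3 lay within the range of Bhlhe41Cre CCR2hi.

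**Figure D4:**
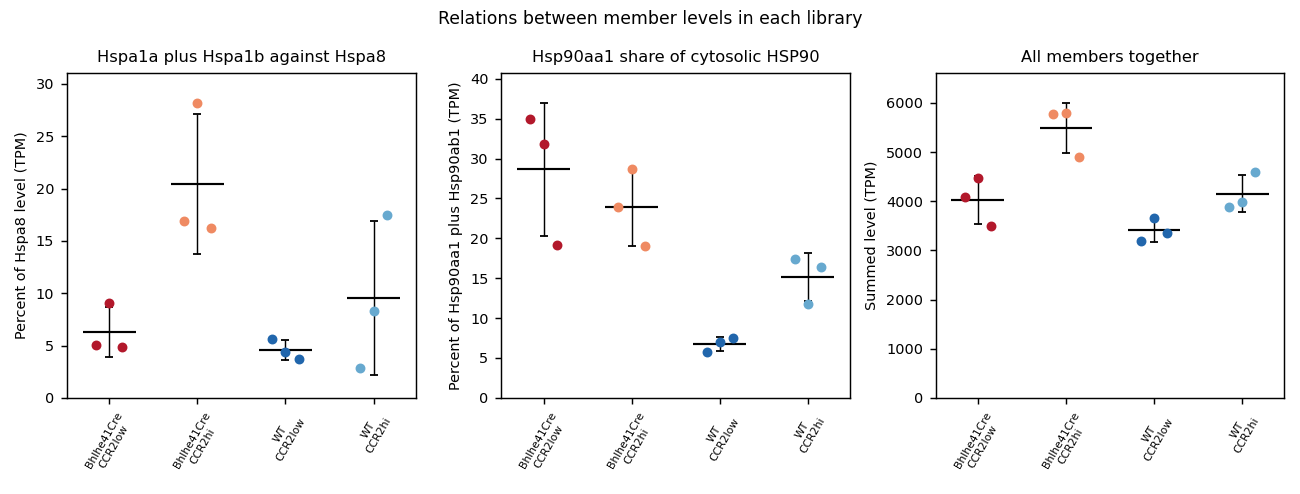
Summed TPM of Hspa1a and Hspa1b as a percentage of Hspa8, Hsp90aa1 as a percentage of summed Hsp90aa1 and Hsp90ab1 TPM, and the summed TPM of all 10 members (y axes, linear from 0), in the 12 libraries by group (x axes). Points are libraries, and bars show the group mean ± SD. The HSP70 percentage is at 16.3 to 28.2% in Bhlhe41Cre CCR2hi and spans 2.85 to 17.5% in WT CCR2hi, and the HSP90 percentage is at 5.76 to 7.48% in WT CCR2low and above it in every other library.

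Dnajb1, the HSP40 that hands clients to HSP70 and starts its ATP cycle, was lower in CCR2low in both genotypes. It was at 43.8, 50.4 and 44.4 TPM in Bhlhe41Cre CCR2low against 132, 123 and 111 TPM in Bhlhe41Cre CCR2hi, and at 45.4, 53.9 and 57.6 TPM in WT CCR2low against 104, 92.7 and 130.3 TPM in WT CCR2hi. The gates did not overlap in either genotype, while the genotypes overlapped in both gates. Dnajb1 fell by 1.17 ± 0.14 in CCR2low of Bhlhe41Cre (adjusted p = 1.38e-05) and by 0.71 ± 0.14 in CCR2low of WT (adjusted p = 0.000766). The difference between these falls was -0.46 ± 0.20 (adjusted p = 0.148), and it was called without WT CCR2hi 3 (-0.63, adjusted p = 0.0436). Between genotypes Dnajb1 gave -0.14 ± 0.14 in CCR2low (adjusted p = 0.466) and 0.32 ± 0.14 in CCR2hi (adjusted p = 0.0968), the second called at 0.49 without WT CCR2hi 3 (adjusted p = 0.0185).

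Hsph1, which releases ADP from HSP70, was at 36.9, 46.5 and 33.2 TPM in Bhlhe41Cre CCR2low, 36.8, 61.9 and 32.6 TPM in Bhlhe41Cre CCR2hi, 18.8, 29.2 and 28.8 TPM in WT CCR2low and 26.1, 38.4 and 44.1 TPM in WT CCR2hi. The Bhlhe41Cre CCR2low libraries lay above the WT CCR2low libraries, and the other contrasts overlapped on this scale. Hsph1 rose by 0.74 ± 0.23 in Bhlhe41Cre in CCR2low (adjusted p = 0.0188), a call that ended without Bhlhe41Cre CCR2low 2 (0.0623) or WT CCR2low 1 (0.07) and on TPM with limma (0.0923). It fell by 0.67 ± 0.23 in CCR2low of WT (adjusted p = 0.0217). That call ended without WT CCR2low 1 (0.0793) or 3 (0.0546), without WT CCR2hi 2 (0.055) or 3 (0.103) and on TPM with limma (0.136), and the change was -1.05 without WT CCR2hi 1. In Bhlhe41Cre the gates gave -0.24 ± 0.22 (adjusted p = 0.395), and in CCR2hi the genotypes gave 0.31 ± 0.22 (adjusted p = 0.312).

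Hsp90aa1, the stress-responsive HSP90, had the largest change of any member between genotypes. It was at 398, 392 and 181 TPM in Bhlhe41Cre CCR2low against 40.9, 54.5 and 51.0 TPM in WT CCR2low, and at 353, 428 and 252 TPM in Bhlhe41Cre CCR2hi against 193, 113 and 178 TPM in WT CCR2hi. Every Bhlhe41Cre library lay above every WT library of its gate, and the WT CCR2low libraries lay below all others. The ratio of mean TPM, Bhlhe41Cre over WT, was 6.64 in CCR2low and 2.14 in CCR2hi. Hsp90aa1 rose by 2.71 ± 0.25 in Bhlhe41Cre in CCR2low (adjusted p = 2.11e-05) and by 1.32 ± 0.24 in CCR2hi (adjusted p = 0.00125). It was called in both gates under every alternative tried.

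The difference between the gates depended on the genotype. Hsp90aa1 fell by 1.28 ± 0.24 in CCR2low of WT (adjusted p = 0.000457) and gave 0.11 ± 0.24 in Bhlhe41Cre (adjusted p = 0.723). The interaction was 1.39 ± 0.34 (adjusted p = 0.0195), with the limits on 2 single libraries given above, and it was 1.41 (adjusted p = 0.0112) without both libraries numbered 3. With the replicate block, which also ties the WT gates by number, it was 1.35 ± 0.21 (adjusted p = 0.00506). Within Bhlhe41Cre CCR2low, library 3 had less Hsp90aa1 than the other two (181 against 392 and 398 TPM), and the CCR2low genotype change was 3.07 without it (adjusted p = 8.94e-06).

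Hsp90ab1, the constitutive HSP90, was at 740.5, 841 and 766 TPM in Bhlhe41Cre CCR2low, 1125, 1064 and 1071 TPM in Bhlhe41Cre CCR2hi, 668, 725 and 632 TPM in WT CCR2low and 916, 852 and 909 TPM in WT CCR2hi. On this scale all 4 groups were apart from each other, with the highest values in Bhlhe41Cre CCR2hi. Hsp90ab1 rose by 0.46 ± 0.13 in Bhlhe41Cre in CCR2hi (adjusted p = 0.0153), a call that ended without WT CCR2hi 2 (0.43, adjusted p = 0.058). In CCR2low the genotypes gave 0.25 ± 0.13 (adjusted p = 0.129), called at 0.31 with DESeq2 size factors (0.0475), at 0.39 with no filter on low counts (0.0438) and at 0.41 with only the 6 libraries compared (0.0222). It was also called by the DESeq2 Wald test (0.00689), without Bhlhe41Cre CCR2low 3 (0.33, adjusted p = 0.0368) and, at 0.44, without any 1 Bhlhe41Cre CCR2hi library (0.0158 to 0.017) or WT CCR2hi 1 (0.00696). Leaving out these libraries moved the median of all genes by 0.16 to 0.19. Between gates the change was -0.23 ± 0.13 in Bhlhe41Cre (adjusted p = 0.142) and -0.02 ± 0.13 in WT (adjusted p = 0.876). On TPM with limma these gate changes were -0.48 (adjusted p = 0.000329) and -0.40 (adjusted p = 0.000929), and on that scale the median of all genes moved by -0.22 and -0.33. The gate change in Bhlhe41Cre was called under 3 of 22 alternatives, not only on TPM, and in no fit with 1 library left out.

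The share of Hsp90aa1 in the HSP90 pair set the genotypes apart. It was 35.0, 31.8 and 19.1% of their summed TPM in Bhlhe41Cre CCR2low, 23.9, 28.7 and 19.1% in Bhlhe41Cre CCR2hi, 5.76, 6.99 and 7.48% in the WT CCR2low libraries and 17.4, 11.7 and 16.4% in the WT CCR2hi libraries. All Bhlhe41Cre libraries lay above all WT libraries, and WT CCR2low lay below the rest.

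Hspd1, the mitochondrial chaperonin HSP60, and Hspe1, its lid HSP10, differed in which contrasts they were called in. Hspd1 was at 74.6, 83.2 and 58.8 TPM in Bhlhe41Cre CCR2low against 36.6, 40.7 and 50.8 TPM in WT CCR2low, and at 90.6, 97.5 and 84.5 TPM in Bhlhe41Cre CCR2hi against 74.5, 53.0 and 60.5 TPM in WT CCR2hi. The genotypes did not overlap in either gate. Hspd1 rose in Bhlhe41Cre by 0.87 ± 0.15 in CCR2low (adjusted p = 0.000529) and by 0.77 ± 0.14 in CCR2hi (adjusted p = 0.00152). Both calls held under every alternative tried. Between gates Hspd1 gave -0.14 ± 0.14 in Bhlhe41Cre (adjusted p = 0.436) and -0.24 ± 0.14 in WT (adjusted p = 0.172). The WT change was called on TPM with limma (-0.55, adjusted p = 0.0138) and, at -0.37 to -0.44, without any 1 of 5 libraries, WT CCR2hi 2, Bhlhe41Cre CCR2low 3 or a Bhlhe41Cre CCR2hi library. The median of all genes moved by -0.15 without Bhlhe41Cre CCR2low 3 and by -0.20 without a Bhlhe41Cre CCR2hi library.

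Hspe1 was at 170.1, 169 and 192 TPM in Bhlhe41Cre CCR2low, 221, 265 and 263 TPM in Bhlhe41Cre CCR2hi, 159, 168 and 145 TPM in WT CCR2low and 185, 163 and 183 TPM in WT CCR2hi. The Bhlhe41Cre CCR2hi libraries lay above all others on this scale. In CPM the Bhlhe41Cre gates overlapped, at 70.7 to 98.1 in CCR2low and 81.6 to 105 in CCR2hi. Hspe1 rose by 0.61 ± 0.16 in Bhlhe41Cre in CCR2hi (adjusted p = 0.00974), and in CCR2low the genotypes gave 0.16 ± 0.16 (adjusted p = 0.417). Between gates it gave -0.26 ± 0.16 in Bhlhe41Cre (adjusted p = 0.182), called without Bhlhe41Cre CCR2low 3 (-0.39, adjusted p = 0.0263), with library size alone (-0.47, adjusted p = 0.0104) and on TPM with limma (-0.49, adjusted p = 0.00204), and 0.19 ± 0.16 in WT (adjusted p = 0.31). The ratio of Hspe1 to Hspd1 TPM ran from 2.03 to 4.35, with means of 2.53 in Bhlhe41Cre CCR2low, 2.76 in Bhlhe41Cre CCR2hi, 3.78 in WT CCR2low and 2.86 in WT CCR2hi. The 2 genes overlap by 112 bp on opposite strands, so reads from that stretch cannot be assigned without strand.

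Hspb1 (HSP27), a small heat shock protein that holds unfolded proteins without ATP and binds actin filaments, was the member that differed most between gates. It was at 47.0, 77.9 and 36.0 TPM in Bhlhe41Cre CCR2low against 452, 468 and 381 TPM in Bhlhe41Cre CCR2hi, and at 104, 107 and 108 TPM in WT CCR2low against 371, 672 and 810.4 TPM in WT CCR2hi. The gates were far apart in both genotypes, and all Bhlhe41Cre CCR2low libraries lay below the WT CCR2low libraries. The ratio of mean TPM, CCR2low over CCR2hi, was 0.124 in Bhlhe41Cre and 0.172 in WT. Hspb1 fell in CCR2low by 2.81 ± 0.28 in Bhlhe41Cre (adjusted p = 2.16e-06) and by 2.19 ± 0.27 in WT (adjusted p = 1.24e-05), in both under every alternative tried. The interaction was -0.62 (adjusted p = 0.28).

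Between genotypes Hspb1 was the only member called lower in Bhlhe41Cre. It fell by 1.02 ± 0.27 in CCR2low (adjusted p = 0.008), a call that ended without Bhlhe41Cre CCR2low 3 (-0.71, adjusted p = 0.0711) and with no filter on low counts (0.0642). Without both libraries numbered 3 it was -0.87 (adjusted p = 0.0394). In CCR2hi it gave -0.40 ± 0.26 (adjusted p = 0.259), called at -0.69 without WT CCR2hi 1 (adjusted p = 0.0204). Hspb1 is well expressed in fibroblasts, smooth muscle and cardiomyocytes. In the 3 contrasts where Hspb1 fell, 9 to 14 of the 14 fibroblast genes and 8 to 9 of the 9 mural genes fell too, while of the 12 cardiomyocyte genes 12 fell between gates in Bhlhe41Cre, 2 between gates in WT, where 1 rose, and 11 between genotypes in CCR2low. The mural list took 0.011 to 0.022% of counts in Bhlhe41Cre CCR2low, 0.165 to 0.176% in Bhlhe41Cre CCR2hi, 0.049 to 0.054% in WT CCR2low and from 0.175 to 0.195% in WT CCR2hi. The part of these cells in the Hspb1 level was not tested.

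The members did not move as a block across the 12 libraries. Likeness was measured as the root mean square difference of 2 genes' log2 CPM profiles after each was centred on its mean, so that 0 is the same profile. It was smallest between Hsp90ab1 and Hspe1 (0.13), then between Hspa8 and Hspe1 (0.27) and between Hspa8 and Hsp90ab1 (0.28), and it was 0.50 between Hspa1a and Hspa1b and largest between Hsp90aa1 and Hspb1 (1.76). Among 8963 other genes with a mean of at least 10 CPM, the closest to Hspa1a were Ly6c2, a surface protein of inflammatory monocytes (0.545), Nts, the neuropeptide neurotensin (0.554), and Prnd, a prion-like protein (0.555), against a median of 1.06 over all candidates. The closest to Hsp90ab1 were Bex3 (0.0656), Ppme1, a phosphatase methylesterase (0.0907), and Sumo2, a ubiquitin-like modifier (0.0908), against a median of 0.490. The closest to Hspd1 were the RNA-binding protein Hnrnpa2b1 (0.122), the elongin subunit Eloc (0.137) and Sarnp (0.140), against a median of 0.637. Hnrnpa2b1, for example, averaged 434 ± 18.4 CPM in Bhlhe41Cre CCR2low and 415 ± 27.1 CPM in Bhlhe41Cre CCR2hi, against 234 ± 6.35 CPM in the WT CCR2low libraries and 261 ± 50.7 CPM in the WT CCR2hi libraries.

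Other chaperone groups are given by counts and medians, to be read beside the shares of all genes called. Between gates these were 24.9% higher and 29.1% lower in Bhlhe41Cre, and 29.8% and 30% in WT. Between genotypes they were 16.4% higher and 26.7% lower in CCR2low, and 16.2% and 15.9% in CCR2hi. Of the 6 of 8 other small heat shock proteins that were tested, 5 fell in CCR2low in Bhlhe41Cre (median -2.20) and 4 in WT (median -1.01), and between genotypes 5 fell in Bhlhe41Cre in CCR2low (median -1.22) and 2 in CCR2hi (median -0.11). Cryab, the alpha-B crystallin of muscle and other stressed cells, averaged 16.8 ± 4.50 TPM in Bhlhe41Cre CCR2low, 106.5 ± 7.85 in Bhlhe41Cre CCR2hi, 42.2 ± 12.1 in WT CCR2low and 211 ± 13.6 in WT CCR2hi. It fell by 1.28 in Bhlhe41Cre in CCR2low (adjusted p = 0.00125) and by 0.89 in CCR2hi (adjusted p = 0.0104). Hspb8, which works with Bag3 in clearing misfolded proteins, fell by 2.64 in CCR2low of Bhlhe41Cre (adjusted p = 1.93e-07) and by 1.33 in CCR2low of WT (adjusted p = 2.08e-05), and these falls differed (-1.31, adjusted p = 0.00627).

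Of 16 chaperones of the endoplasmic reticulum (ER), 11 rose in Bhlhe41Cre in CCR2low (median 0.46; 7 to 14 over alternatives) and 5 did not pass the test, and 1 rose in CCR2hi (median 0.15, of the opposite sign under 2 of 22 alternatives). Hspa5 (BiP), the HSP70 of the ER, averaged 1337 ± 267 TPM in Bhlhe41Cre CCR2low against 595 ± 85.4 TPM in WT CCR2low and rose by 1.19 (adjusted p = 0.000139). Hsp90b1 (GRP94), the HSP90 of the ER, averaged 371 ± 69.8 TPM in Bhlhe41Cre CCR2low against 145 ± 13.7 TPM in WT CCR2low and rose by 1.37 (adjusted p = 7.14e-05). In CCR2hi the genotypes gave 0.38 for Hspa5 (adjusted p = 0.0783) and 0.24 for Hsp90b1 (adjusted p = 0.27), and the interactions were 0.81 (adjusted p = 0.0325) and 1.13 (adjusted p = 0.00799). Dnajb9, a J-domain protein that regulates the stress sensor IRE1, rose in both gates, by 1.31 (adjusted p = 8.09e-05) and 1.41 (adjusted p = 3.92e-05). Between gates in WT, 8 of the 16 fell in CCR2low and 1 rose (median -0.34).

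The cytosolic chaperonin CCT folds actin and tubulin, and prefoldin hands it clients. Of 14 subunits, 10 rose in Bhlhe41Cre in CCR2hi (median 0.50; 7 to 11 over alternatives) and 4 did not pass the test, where 16.2% of all genes rose. In CCR2low 6 rose (median 0.28; 5 to 10 over alternatives) and 8 did not pass, where 16.4% of all genes rose. Cct5 averaged 225 ± 6.95 TPM in Bhlhe41Cre CCR2hi against 161 ± 10.8 TPM in WT CCR2hi and rose by 0.63 (adjusted p = 0.000586), and Cct2 rose by 0.66 (adjusted p = 0.00103). Cct8 rose in CCR2low (0.97, adjusted p = 0.000635) and gave 0.12 in CCR2hi (adjusted p = 0.625), with an interaction of 0.86 (adjusted p = 0.0324). Between gates in WT, 3 rose and 1 fell in CCR2low. Between gates in Bhlhe41Cre edgeR called 0 of 14. At an unadjusted p under 0.05 it had 2 higher and 1 lower, DESeq2 called 3 higher and limma 2 lower.

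Co-chaperones and HSP70 relatives were mixed. Of 22, 6 rose and 6 fell in CCR2low of Bhlhe41Cre, near the shares of all genes (24.9% and 29.1%), and 5 rose and 8 fell in CCR2low of WT. Between genotypes, 6 rose and 2 fell in CCR2low, and 2 rose and 1 fell in CCR2hi. Chordc1, an HSP90 co-chaperone, rose by 1.21 in Bhlhe41Cre in CCR2low (adjusted p = 0.00013). Hspa2, an HSP70 best known from testis, fell in CCR2low by 1.04 in Bhlhe41Cre (adjusted p = 1.65e-05) and by 0.65 in WT (adjusted p = 0.000795). Of the 12 of 13 other cytosolic J-domain proteins that were tested, 7 rose and 1 fell in Bhlhe41Cre in CCR2low (median 0.57), and 2 rose and 1 fell in CCR2hi. Dnajb4, a close relative of Dnajb1, rose by 1.497 in Bhlhe41Cre in CCR2low (adjusted p = 0.000232) and fell by 2.00 in CCR2low of WT (adjusted p = 4.4e-06), with an interaction of 1.78 (adjusted p = 0.0038).

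Of 12 other mitochondrial chaperones and proteases, 4 rose in CCR2low of Bhlhe41Cre (median 0.25), where 24.9% of all genes rose. In CCR2low of WT 6 rose (median 0.30, of the opposite sign under 2 of 22 alternatives), where 29.8% of all genes rose. Between genotypes 3 rose and 3 fell in CCR2low, and 2 rose in CCR2hi. Afg3l2, a protease of the inner membrane, rose in CCR2low by 1.01 in Bhlhe41Cre (adjusted p = 7.69e-06) and by 1.14 in WT (adjusted p = 2.04e-06).

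**Figure D5:**
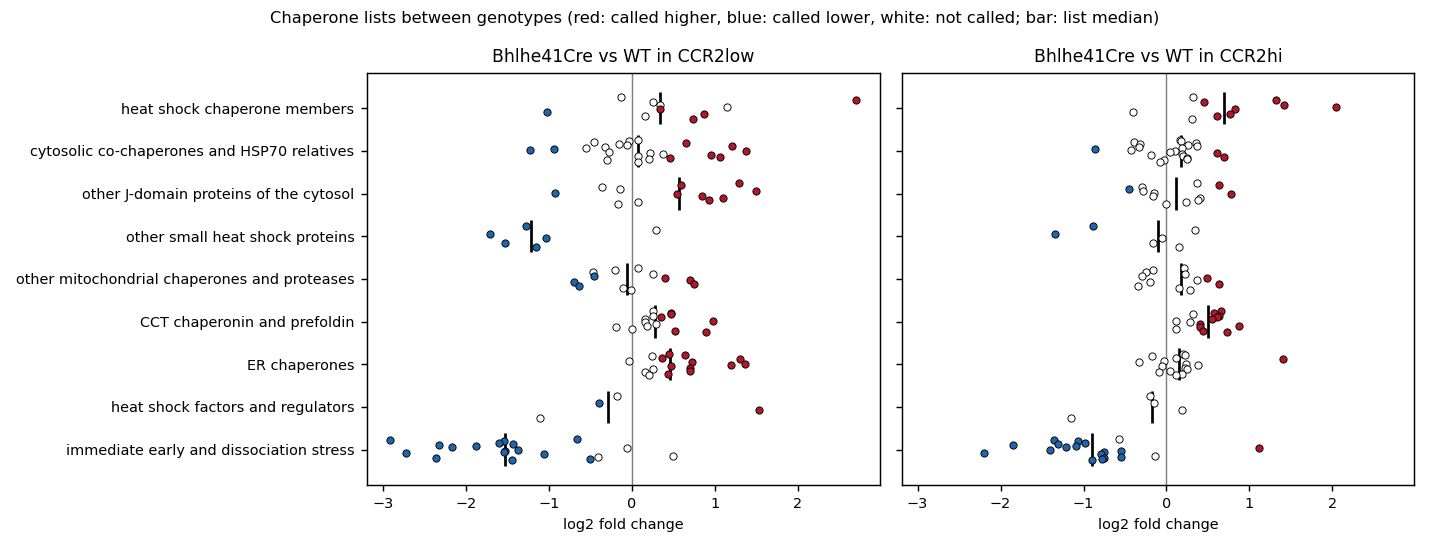
Log2 fold change from edgeR (x axes) of every tested gene of the members, the other chaperone lists and the immediate early list (rows) between genotypes in each gate (panels). Red and blue points were called higher and lower in Bhlhe41Cre at an adjusted p under 0.05, white points were not called, and bars are list medians. In Bhlhe41Cre vs WT in CCR2low, 11 of 16 ER chaperones are red and 16 of 19 immediate early genes are blue.

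Of 6 heat shock factors and regulators, 4 were tested. Of these, 2 rose in CCR2low of Bhlhe41Cre, 1 rose in CCR2low of WT, and between genotypes in CCR2low 1 rose and 1 fell. Between genotypes in CCR2hi edgeR called 0 of 4, with 1 lower at an unadjusted p under 0.05, while DESeq2 called 1 lower and limma 2 lower. Hsf1, the main heat shock factor, averaged 18.3 ± 2.57 TPM in Bhlhe41Cre CCR2low, 22.9 ± 1.78 in Bhlhe41Cre CCR2hi, 22.9 ± 2.37 in WT CCR2low and 28.8 in WT CCR2hi (27.3 to 30.3). It fell by 0.40 in Bhlhe41Cre in CCR2low (adjusted p = 0.0146) and gave -0.15 in CCR2hi (adjusted p = 0.362). Hsf2, a second factor that binds the same elements, rose by 1.54 in Bhlhe41Cre in CCR2low (adjusted p = 0.00028) to 12.1 ± 5.27 TPM, against 3.76 ± 0.54 TPM in WT CCR2low. Hsbp1, which binds HSF1 trimers, rose in CCR2low by 0.37 in Bhlhe41Cre (adjusted p = 0.0245) and by 0.35 in WT (adjusted p = 0.0281).

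Of 19 genes of the early response to stress and to tissue dissociation, 16 fell in Bhlhe41Cre in CCR2low (median -1.53; 14 to 16 over alternatives) and 16 fell and 1 rose in CCR2hi (median -0.90; 14 to 17 fell over alternatives). The list took 0.93 to 0.95% of counts in Bhlhe41Cre CCR2low, 1.24 to 1.59% in Bhlhe41Cre CCR2hi, 2.34 to 2.60% in WT CCR2low and from 1.96 to 2.95% in WT CCR2hi. Btg2, an early antiproliferative gene, averaged 30.9 ± 3.54 TPM in Bhlhe41Cre CCR2low against 239 ± 44.4 TPM in WT CCR2low and fell by 2.91 (adjusted p = 2.84e-06). Nr4a1, an early nuclear receptor, fell by 2.36 in CCR2low (adjusted p = 1e-05) and by 0.75 in CCR2hi (adjusted p = 0.00835). Between gates, 12 fell and 2 rose in CCR2low of Bhlhe41Cre, and 6 fell and 4 rose in CCR2low of WT. Whether these genes and the chaperones share a source was not tested.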

How the data were processed

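Per the submitters' processing notes, reads were processed with CASAVA 1.8, STAR 2.4.0j and RSEM on mm10. The sources used here do not give the annotation, RSEM version or strand protocol. In the deposited count table the authors' expected counts are whole for every Ensembl gene (0 exceptions), and the deposited TPM table holds the authors' TPM, which sum to 1e+06 to 1000001 per library. Columns of Bhlhe41Cre libraries are named KD and were matched by gate and number. Since their other label fields are displaced, groups were taken from titles. All columns were used.

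The members, the companion lists and the tests were chosen with earlier results of these data known. All 10 members were named, and of each companion list the few with the smallest p-values, with the 3 genes most alike to each of Hspa1a, Hsp90ab1 and Hspd1. Counts of 12 libraries were scaled by TMM, filtered with filterByExpr and fitted in edgeR 4.0.16 (R 4.3.3; quasi-likelihood, robust, a mean per group, 8 residual degrees of freedom, biological coefficient of variation 18.9%). Tests were two-sided, with Benjamini-Hochberg adjustment over 14964 genes in each comparison. The script was tested on simulated counts. Alternatives were other scalings (DESeq2 size factors, library size, upper quartile), the Wald test of DESeq2 1.42.0, no filter, limma 3.58.1 on log2(TPM + 0.5) or log2(TPM + 1), which understates changes of low genes, the 6 libraries compared, the replicate number as a block, Hspa1a and Hspa1b summed, and each library left out.

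Libraries with the same number were checked by correlating their deviations from group means. Between the gates of Bhlhe41Cre these were 0.33, 0.15 and 0.55, all above 0.1, so the numbers were taken to pair libraries there, although different-numbered libraries gave -0.49 to 0.35 and Bhlhe41Cre CCR2low 2 was closer to CCR2hi 1 (0.35) than to CCR2hi 2. The main fit holds no block, so its gate SE and adjusted p leave this pairing out, and only the replicate block uses it. Between the gates of WT they were -0.09, 0.06 and -0.04, and between genotypes -0.36 to -0.09 in CCR2low and -0.27 to 0.22 in CCR2hi, so they were not taken as pairs. Positions are from GENCODE mouse release 21 (99.66% of identifiers found) and promoter windows from RefSeq on GRCm38.p6. Of 53801 genes, 27248 had no count.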

Additional observations from a re-analysis of the deposited data

Results flagged for a closer look

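The effect of the CCR2 gate on Hsp90aa1 differed between the genotypes by a test of the difference itself. The CCR2low minus CCR2hi difference was 1.39 higher in Bhlhe41Cre than in WT on the log2 scale (edgeR adjusted p = 0.0195), with 0.11 in Bhlhe41Cre against -1.28 in WT. Of the 12 libraries, WT CCR2low 1 to 3 held the lowest values (40.9, 54.5 and 51.0 TPM), against 113 to 428 TPM in the other 9. The call ended without Bhlhe41Cre CCR2low 1 or WT CCR2low 2.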

How the results depend on the processing

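Each of the 50 member results (10 members in 5 comparisons) was recomputed under each alternative. Of the 22 called, 11 kept their direction and their call in all of them, and the other 11 kept their direction and lost the call in at least 1. Of the 28 not called, 12 were called in at least 1 alternative, and 13 changed sign in at least 1.

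The number of members called lower between gates in Bhlhe41Cre was 2 with no filter and 2 without both libraries numbered 3, and 2 to 4 without single libraries. On TPM with limma, 0 and 0 members (pseudocounts 0.5 and 1) were called higher between gates in WT, and 2 and 2 between genotypes in CCR2low. That second count was 2 to 6 without single libraries, and the count called lower there was 0 with no filter and 0 to 1 without single libraries. In CCR2hi, 4 to 8 were called higher and 0 to 1 lower without single libraries. In the interaction, 0 to 1 were called higher and 0 to 1 lower without single libraries, and 1 was called lower with library size alone and 1 with DESeq2 (Hspa8 in both). Over all genes the interaction had 1884 calls, 1080 and 1181 on TPM with limma and 871 to 2801 without single libraries, with 871 without Bhlhe41Cre CCR2low 1, 927 without Bhlhe41Cre CCR2hi 3, 1138 without WT CCR2low 1 and 953 without WT CCR2low 2.

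Changes of sign were all in uncalled results. Between gates in Bhlhe41Cre, Hspa8 was -0.11 with library size alone and -0.13 and -0.13 on TPM, Hsp90aa1 -0.082, -0.14 and -0.14 in the same settings and -0.071 to 0.34 without single libraries, Hsph1 -0.39 to 0.073 without single libraries, and Hspd1 0.013 with no filter. Between gates in WT, Hspa1a was 0.023 with the replicate block and -0.96 to 0.43 without single libraries, Hspa1b -1.59 to 0.033, Hsp90ab1 -0.24 to 0.07 and Hspe1 -0.018 to 0.30 without single libraries, and Hspe1 -0.17 and -0.17 on TPM. Between genotypes in CCR2low, Dnajb1 was 0.0031 with no filter, 0.021 with the 6 libraries compared and -0.19 to 0.055 without single libraries, and Hspe1 -0.0086 without both libraries numbered 3. In CCR2hi, Hsph1 was -0.013 to 0.48 without single libraries. In the interaction, Hsp90ab1 was -0.29 to 0.0078 without single libraries and Hspd1 -0.0077 with library size alone. The cause of these changes was not tested.

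For gates and the interaction, the replicate block tied the gates of each genotype by number. For genotypes it tied libraries of all groups by number. Only the pairing between the gates of Bhlhe41Cre was taken to hold. The block ended the call of Hspa8 between genotypes in CCR2low (adjusted p = 0.0654), where numbers were not taken as pairs, and changed no other member's call. The median of all genes moved by -0.20, -0.10 and -0.10 with library size alone (gates in Bhlhe41Cre, gates in WT, interaction), by -0.22, -0.33, -0.14 and 0.13 on TPM (these 2 gates, genotypes in CCR2hi, interaction), by 0.15, 0.14 and 0.20 with no filter (gates in Bhlhe41Cre, genotypes in CCR2low, interaction) and by 0.16 with the 6 libraries compared (genotypes in CCR2low). Without any 1 Bhlhe41Cre CCR2hi library or WT CCR2hi 1, it moved by 0.19 between genotypes in CCR2low. Between gates in WT it then moved by -0.20 to -0.21, and in the interaction by 0.19 to 0.22. Without Bhlhe41Cre CCR2low 3 these shifts were 0.16, -0.15 and 0.19. Member values without these libraries are to be read beside these shifts. Of called genes, 46.1% were higher between gates in Bhlhe41Cre, but 32% with library size alone and 30.4% on TPM. Between gates in WT the share was 49.8%, but 31.1% on TPM. Between genotypes it was 38% in CCR2low, but 52.4% with no filter and 54.2% with 6 libraries, and 50.4% in CCR2hi, but 61.8% with library size alone and 35.4% on TPM. In the interaction it was 37.7%, but 47.8% with DESeq2 size factors, 19.5% with library size alone and 62.5% with no filter. Without Bhlhe41Cre CCR2low 3, any 1 Bhlhe41Cre CCR2hi library or WT CCR2hi 1, the share was 51.8 to 56.8% between genotypes in CCR2low. In the interaction it was then 55.9 to 63%.

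The limits are 3 libraries a group, cells whose markers differ between gates and genotypes, Xist against the male label, near-identical Hspa1a and Hspa1b, and counts without molecular identifiers.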
